A study of Mus musculus with 11 samples.

Results

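Immediate-early response genes are the first genes that a cell transcribes after a stimulus, before any new protein is made. The 32 genes described here were taken by name from the 55401 genes listed for each library, and all 32 were found. They are 6 subunits of the AP-1 transcription factor, the 4 EGR zinc finger factors, the 3 NR4A nuclear receptors, Arc and Npas4, 7 other regulators of transcription, 3 phosphatases of MAP kinases, 5 genes of growth restraint, survival or mRNA decay, and the secreted matrix proteins Ccn1 and Ccn2. Arc, Npas4, Egr3 and Egr4 were set apart as typical of neurons, and the other 28 as induced in many cell types. The rule uses names alone, and the list was drawn up with earlier results of these libraries known.

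In neurons, firing and calcium entry act through CREB, serum response factor (SRF) and the ERK branch of the MAP kinases to switch these genes on within minutes, and their mRNAs decay quickly. Growth factors, stretch, injury and enzymatic dissociation of a tissue switch on most of them in glia, fibroblasts and endothelium as well. In sensory ganglia, Fos and Egr1 are widely used as marks of recent stimulation, and satellite glia, the cells that wrap each neuron body, express them too.

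The mRNA was taken from cells of mouse trigeminal ganglia sorted on fluorescence of DiI, a dye carried back from nerve endings. The labels call the cells neurons, which in this ganglion sense touch, heat and pain in the face and mouth, but glial markers were abundant in every library. There were 6 libraries from mice bearing MOC1 tumours (3 female and 3 male), MOC1 being a single mouse oral squamous carcinoma line, and 5 from sham mice (3 female and 2 male). Ganglia of both sides were taken, the sort gates were set on naïve mice and on DiI-injected sham mice, and no source used here gives age, strain or time after tumour injection. The labels leave unsaid whether the libraries stem from separate animals, and p-values measure only how far these libraries spread, which may be technical.

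Gene counts per library lay between 10757426 and 16703797. The 20 pan-neuronal markers were all detected and summed to between 14278 and 16271 CPM (counts per 1000000 gene counts) in MOC1 libraries and between 11320 and 14030 CPM in sham libraries. The 16 satellite glia markers summed to between 3524 and 6200 CPM in MOC1 libraries and between 9415 and 11379 CPM in sham libraries, and 14 of the 16 fell. Sham female 1 carried 1572 CPM of endothelial and mural markers, where the other 10 libraries held between 215 and 430 CPM. Macrophage markers did not exceed 35.0 CPM and T cell markers 5.31 CPM in any library. The squamous epithelium and tumour markers summed to between 395 and 510 CPM in MOC1 libraries and between 402 and 456 CPM in sham libraries. Of these 10 genes, 5 stayed under 1 CPM in every library, so the sum rests on the others. In bulk libraries such as these, fewer cells of a type and less RNA per cell cannot be told apart.

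Immediate-early mRNA was lower in the libraries of tumour-bearing mice under TMM scaling. Of the 31 members that passed the low-count filter, 19 fell in MOC1 libraries and none rose (edgeR quasi-likelihood test with sex as a term, Benjamini-Hochberg adjusted p under 0.05 over 16817 genes). Of all genes tested, 4.28% were lower and 2.34% higher by the same rule. The log2 changes of the 19 ran from -2.17 to -0.58, and 17 of the 19 were at least 2-fold. The median over the 31 tested members was -1.23, against -0.03 for all genes tested. At an unadjusted p under 0.05, 27 members were lower and none higher, and DESeq2 called 22 lower and none higher. Scaled to satellite glia markers in place of TMM, 4 members were lower and 3 higher, as given with the marker sums. In 19 of the 31 every MOC1 library lay below every sham library, a separation that 4.18% of all genes tested showed in that direction. Of the 19 members that fell under TMM scaling, 16 kept the call without each of the 11 libraries in turn, and Jund, Ier5 and Nr4a3 did not.

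**Figure D1:**
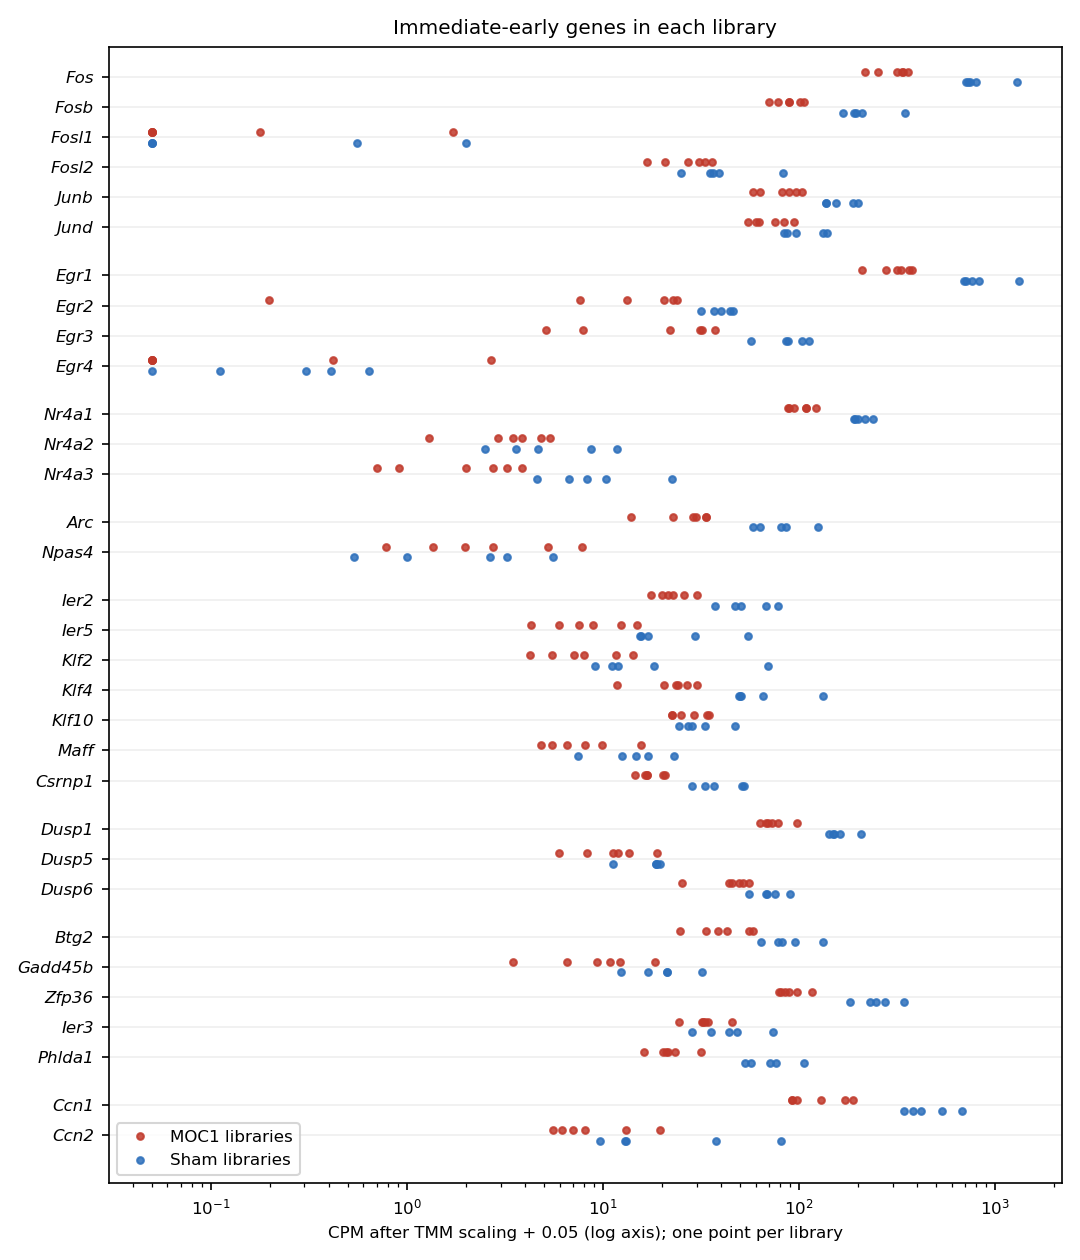
CPM after TMM scaling, plus 0.05, on a log axis for each of the 32 genes, grouped by role, with 1 point per library (MOC1 above sham within each gene). MOC1 and sham points are apart for Fos, Egr1, Zfp36 and Ccn1 and overlap for Npas4 and Klf10.

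**Figure D2:**
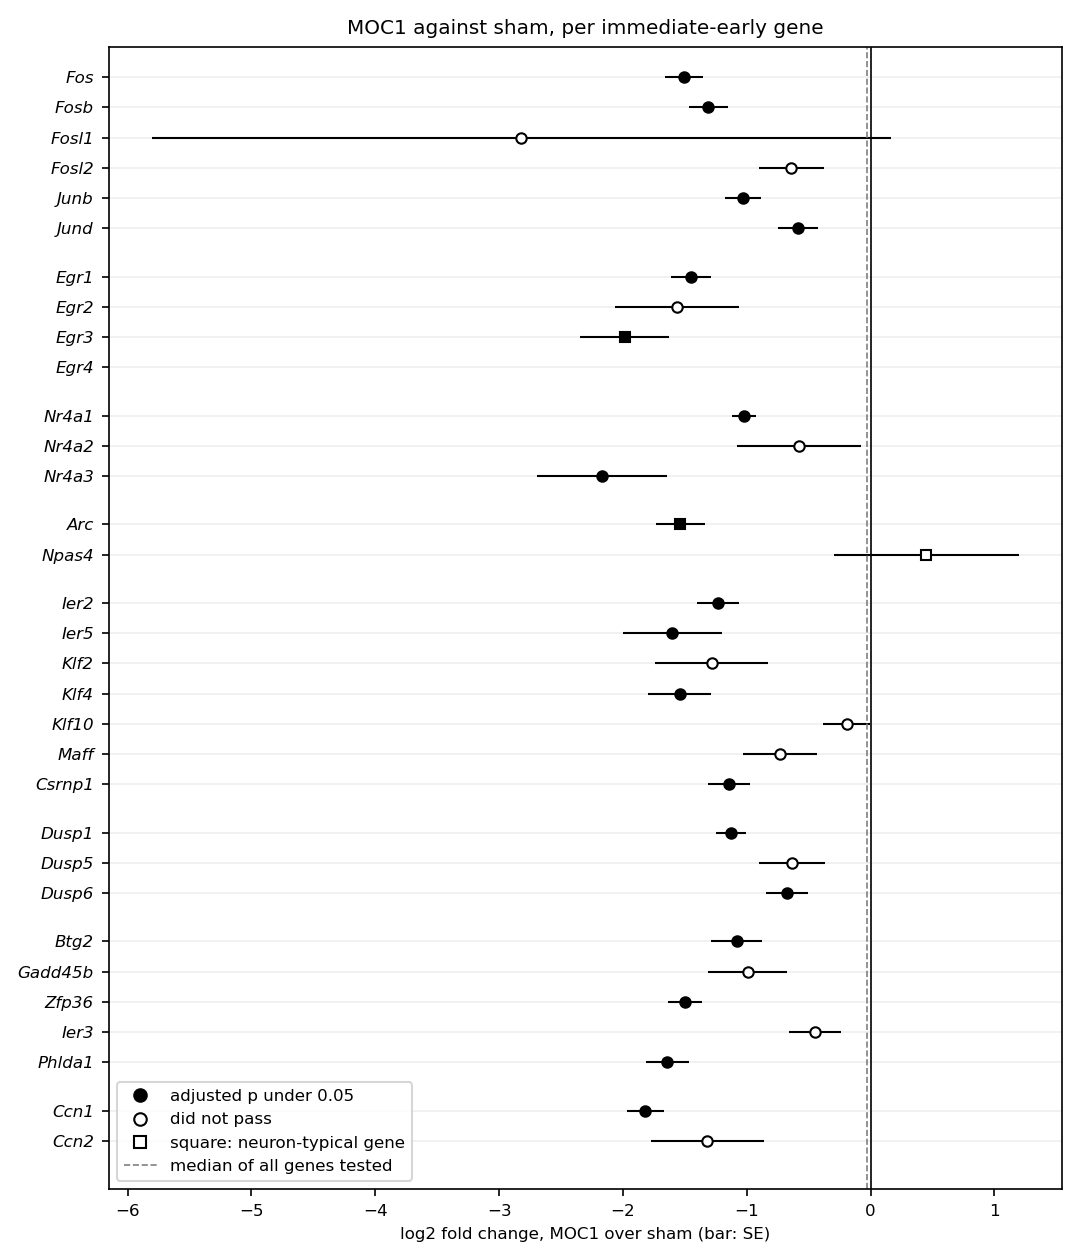
Log2 fold change of MOC1 over sham for the 31 tested members, with its standard error as a bar. Filled symbols passed an adjusted p of 0.05 and squares mark the neuron-typical genes; 30 of the 31 lie below 0 and Npas4 lies above it.

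RefSeq promoter windows were matched by symbol for 24 of the 32 members, 14 of them among the 19 that fell. For 19 of the 24, the bases after the start of a window lay in a GENCODE M21 transcript of the gene. Members without such a match were kept in the counts of elements below. The Jund window ended at 70697738 on chromosome 8, before the gene position of Jund used here, which starts at 70698949. The 250 bases before the RefSeq start (GRCm38.p6) are shown for 4 members that fell and then for Npas4 and Dusp5, which did not pass, because they carry the elements through which CREB and SRF are known to act. They lie at chr12:85473640-85473889 (plus strand), chr15:101266596-101266845 (plus strand), chr7:28379229-28379478 (minus strand), chr17:26508473-26508722 (minus strand), chr19:4989972-4990221 (minus strand) and chr19:53528895-53529144 (plus strand). Capitals mark a cAMP response element (CRE, TGACGTCA), its half-site (TGACG), a CArG box, an EGR site (GCGGGGGCG) or an AP-1 site (TGANTCA), searched on both strands.
Fos: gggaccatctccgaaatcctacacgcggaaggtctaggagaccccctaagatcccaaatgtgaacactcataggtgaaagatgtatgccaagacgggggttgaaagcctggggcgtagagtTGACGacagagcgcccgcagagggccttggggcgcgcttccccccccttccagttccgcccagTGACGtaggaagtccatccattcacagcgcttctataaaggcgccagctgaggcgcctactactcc
Nr4a1: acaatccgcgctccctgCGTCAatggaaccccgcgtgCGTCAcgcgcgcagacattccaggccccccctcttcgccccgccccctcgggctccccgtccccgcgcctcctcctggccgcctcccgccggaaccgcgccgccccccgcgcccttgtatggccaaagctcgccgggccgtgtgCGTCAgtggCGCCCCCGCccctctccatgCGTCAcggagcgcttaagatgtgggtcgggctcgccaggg
Zfp36: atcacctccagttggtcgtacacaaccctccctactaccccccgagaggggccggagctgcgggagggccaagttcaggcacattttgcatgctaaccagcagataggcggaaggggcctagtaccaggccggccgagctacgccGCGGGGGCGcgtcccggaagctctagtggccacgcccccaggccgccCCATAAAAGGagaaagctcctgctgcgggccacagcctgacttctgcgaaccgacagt
Dusp1: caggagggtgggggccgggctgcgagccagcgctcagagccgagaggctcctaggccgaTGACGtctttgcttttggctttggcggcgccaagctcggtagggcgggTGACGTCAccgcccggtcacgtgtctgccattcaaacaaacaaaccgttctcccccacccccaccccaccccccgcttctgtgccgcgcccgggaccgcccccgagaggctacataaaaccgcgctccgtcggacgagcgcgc
Npas4: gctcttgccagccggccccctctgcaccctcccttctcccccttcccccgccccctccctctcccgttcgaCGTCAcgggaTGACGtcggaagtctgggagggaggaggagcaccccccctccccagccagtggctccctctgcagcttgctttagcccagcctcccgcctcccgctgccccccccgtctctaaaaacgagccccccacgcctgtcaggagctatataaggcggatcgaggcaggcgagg
Dusp5: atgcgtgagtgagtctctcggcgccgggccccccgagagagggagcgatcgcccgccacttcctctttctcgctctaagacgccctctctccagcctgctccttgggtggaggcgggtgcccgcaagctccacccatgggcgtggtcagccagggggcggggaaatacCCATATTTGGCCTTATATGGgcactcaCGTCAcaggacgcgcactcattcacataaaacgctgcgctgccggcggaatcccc

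The CRE half-site lay in the windows of 17 of the 24 members (70.8%) and of 10 of the 14 that fell (71.4%), against 19.8% of 27025 genes with a window. Each full CRE holds a pair of overlapping half-sites. The full CRE was found in 3 members (12.5%), Btg2, Dusp1 and Maff, against 1.77% of genes. The CArG box, which SRF binds, was found in Dusp5, Egr2 and Zfp36 (12.5% against 1.62%), and the EGR site in 6 members (25% against 2.93%). The AP-1 site was found in Csrnp1 (4.17% against 7.82%). Member windows were richer in G and C, with a median of 64% against 52.4% over all windows, and the half-site, the full CRE and the EGR site each hold a CG step. Npas4 and Dusp5, which did not pass, carry the half-site as Fos and Nr4a1 do, and Dusp5 carries the CArG box as Zfp36 does. A match of letters does not show that a factor binds there. Only the 250 bases before the start were searched, so a missing match does not show that a gene lacks the element.

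Among the AP-1 subunits, which pair through a leucine zipper to bind DNA, 4 of 6 fell. Fos, on chromosome 12 (85473890 to 85477273, GRCm38), encodes the best known of them. It stood at 216 CPM after TMM scaling in the lowest MOC1 library, 325 at the median and 359 in the highest. In sham libraries it stood at 741, 1298 and 709 CPM in females and at 794 and 724 CPM in males. The arms did not overlap, and sham female 2 was far above the other sham libraries. Fos fell 2.84-fold (log2 -1.51 ± 0.15 SE, adjusted p = 7.79e-06, edgeR), and without sham female 2 its log2 change was -1.30.

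Fosb, whose product also dimerises with JUN proteins, averaged 88.7 ± 13.5 CPM over 6 MOC1 libraries (SD) and 222 ± 70.9 CPM over 5 sham libraries (SD). It fell by 1.31 on the log2 scale (SE 0.16, adjusted p = 3.07e-05, edgeR), again with its highest value, 346 CPM, in sham female 2. Junb, a JUN-family partner, lay between 58.1 and 103 CPM in MOC1 libraries and between 137 and 200 CPM in sham libraries and fell by 1.03 (SE 0.14, adjusted p = 0.000142, edgeR), with a value of 0.052 on the scale of satellite glia markers (the glial scale). Jund, a JUN-family gene that many resting cells express, had the smallest of the 19 falls. It averaged 71.5 ± 15.3 CPM over 6 MOC1 libraries (SD) and 108 ± 26.0 CPM over 5 sham libraries (SD), with overlap (log2 -0.58 ± 0.16, adjusted p = 0.0347, edgeR), and on the glial scale it was higher, at 0.55. Jund lost its call without MOC1 female 1 (log2 -0.53), MOC1 female 2 (-0.51), MOC1 male 2 (-0.52), sham female 1 (-0.48) or sham female 2 (-0.51).

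Fosl2 and Fosl1, the other FOS-family genes, did not pass. Fosl2 lay between 16.7 and 36.0 CPM in MOC1 libraries and between 24.8 and 83.0 CPM in sham libraries (log2 -0.64 ± 0.26). Its log2 change was -0.30 without sham female 1, the library with high endothelial markers and the highest Fosl2. Fosl1 had counts in 2 MOC1 libraries and 2 sham libraries and did not exceed 1.96 CPM, so no change was detectable at this depth.

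In the EGR family of zinc finger factors, Egr1 and Egr3 fell. Egr1, on chromosome 18 (34859823 to 34864984), which is induced beside Fos by most stimuli, ran from 209 to 376 CPM in MOC1 libraries with a median of 323. Sham females had 827, 1317 and 760 CPM and sham males 709 and 697 CPM. The arms did not overlap, with sham female 2 again the highest. Egr1 fell 2.74-fold (log2 -1.45 ± 0.16, adjusted p = 1.50e-05, edgeR).

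Egr3, on chromosome 14 (70077203 to 70082614), is tied in the brain to synaptic activity. It ran from 5.08 to 37.0 CPM in MOC1 libraries with a median of 26.4, and stood at 112, 57.1 and 85.8 CPM in sham females and 87.2 and 103 CPM in sham males. The MOC1 libraries differed widely among themselves without reaching any sham library. Egr3 fell 3.96-fold (log2 -1.99 ± 0.36, adjusted p = 0.00173, edgeR).

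Egr2, a factor that Schwann cells also need to form myelin, did not pass although the arms did not overlap (0.147 to 23.7 CPM in MOC1 and 31.4 to 46.2 CPM in sham libraries). Its log2 change was -1.56 ± 0.50 (adjusted p = 0.0745, edgeR). MOC1 female 3 held 2 counts of Egr2, and without that library the change was -1.23 with an adjusted p of 0.00334 (edgeR). It also passed without MOC1 female 1, at -2.17 (adjusted p = 0.0262). Egr4 did not pass the low-count filter, with 0 counts in 4 MOC1 libraries and 1 sham library and at most 36 counts, in MOC1 female 3.

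Of Arc and Npas4, the members most closely tied to neuronal firing, Arc fell and Npas4 did not pass. Arc, on chromosome 15 (74669083 to 74672570), encodes a postsynaptic protein that moves AMPA receptors off the membrane. It ran from 13.8 to 33.5 CPM in MOC1 libraries with a median of 29.1, and stood at 86.1, 124 and 80.4 CPM in sham females and 62.8 and 57.8 CPM in sham males. Every MOC1 library lay below every sham library, and Arc fell 2.90-fold (log2 -1.54 ± 0.20, adjusted p = 5.63e-05, edgeR).

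Npas4, on chromosome 19 (4984355 to 4990316), encodes a factor that calcium entry induces in neurons and few other cells. It stood at 0.732 CPM in the lowest MOC1 library, 2.31 at the median and 7.80 in the highest. Sham females had 0.490, 5.47 and 3.19 CPM and sham males 2.61 and 0.951 CPM. The arms overlapped fully (log2 0.45 ± 0.75, adjusted p = 0.842, edgeR), and the counts behind these values ran from 8 to 106 per library. Without MOC1 female 3 the log2 change was -0.089. Of the 4 neuron-typical genes 2 fell, Arc and Egr3, and of the 28 broadly induced genes 17 fell. This split of 3 tested genes against 28 is too small to compare.

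Nr4a1, on chromosome 15 (101254269 to 101274795), encodes an orphan nuclear receptor induced by calcium and cAMP. It ran from 87.7 to 122 CPM in MOC1 libraries with a median of 101, and stood at 216, 199 and 192 CPM in sham females and 237 and 189 CPM in sham males. The libraries of each arm lay close together and the arms well apart. Nr4a1 fell 2.03-fold (log2 -1.02 ± 0.10, adjusted p = 3.76e-06, edgeR), with a value of 0.090 on the glial scale. Nr4a3, its close relative, was low, at 0.657 to 3.82 CPM in MOC1 libraries and 4.55 to 22.4 CPM in sham libraries. It fell 4.49-fold (log2 -2.17 ± 0.52, adjusted p = 0.0154, edgeR), and without sham female 1 the change was -1.75 with an adjusted p of 0.0838 (edgeR). Nr4a2, the third of the family, averaged 3.57 ± 1.44 CPM over 6 MOC1 libraries (SD) and 6.18 ± 3.86 CPM over 5 sham libraries (SD) and did not pass (log2 -0.58 ± 0.50).

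Of the 7 other regulators of transcription, 4 fell. Klf4, a Krüppel-like factor, averaged 22.8 ± 6.28 CPM over 6 MOC1 libraries (SD) and 69.4 ± 35.8 CPM over 5 sham libraries (SD), a log2 change of -1.54 ± 0.26 (adjusted p = 0.0008, edgeR). Its highest value, 132 CPM, was in sham female 1, without which the log2 change was -1.23. Ier2, a short nuclear protein of the early response, fell by 1.23 (SE 0.17, adjusted p = 0.000133, edgeR), between 17.5 and 30.0 CPM in MOC1 libraries and between 37.0 and 78.4 CPM in sham libraries. Csrnp1, a nuclear protein that AXIN1 induces in human cells, fell by 1.14 (SE 0.17, adjusted p = 0.000308, edgeR), between 14.5 and 20.7 CPM in MOC1 libraries and between 28.3 and 52.6 CPM in sham libraries. For all 3 every MOC1 library was below every sham library.

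Ier5, which encodes a cofactor of the heat shock factor HSF1, fell by 1.60 (SE 0.40, adjusted p = 0.0175, edgeR). It ran from 4.26 to 14.8 CPM in MOC1 libraries and from 15.5 to 54.9 CPM in sham libraries. Its call was lost without MOC1 female 1 (log2 -1.53, adjusted p = 0.0577, edgeR) or MOC1 female 2 (-1.33, adjusted p = 0.0737). Without sham female 1, the library with the highest Ier5, the log2 change was -1.20. Klf2, a factor also known from endothelium under flow, stood at 69.0 CPM in sham female 1 and between 9.03 and 18.1 CPM in the other sham libraries, against 4.21 to 14.2 CPM in MOC1 libraries. It did not pass (log2 -1.28 ± 0.46), and its log2 change was -0.56 without sham female 1. Maff, a small MAF protein, stood at -0.73 ± 0.30 and Klf10, induced by TGF-beta, at -0.19 ± 0.19 on the log2 scale, and neither passed. Klf10 averaged 27.9 ± 5.55 CPM over 6 MOC1 libraries (SD) and 31.9 ± 8.91 CPM over 5 sham libraries (SD).

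Of the 3 phosphatases that switch MAP kinases off, Dusp1 and Dusp6 fell. Dusp1, which acts on p38, JNK and ERK, ran from 63.2 to 97.7 CPM in MOC1 libraries with a median of 71.0. It stood at 208, 162 and 141 CPM in sham females and at 150 and 149 CPM in sham males. The arms did not overlap, and Dusp1 fell 2.19-fold (log2 -1.13 ± 0.12, adjusted p = 1.13e-05, edgeR). Dusp6, which acts on ERK, fell 1.60-fold (log2 -0.68 ± 0.17, adjusted p = 0.0181, edgeR, and 0.37 on the glial scale), between 25.1 and 55.4 CPM in MOC1 libraries and between 55.7 and 89.7 CPM in sham libraries. Dusp5, a nuclear ERK phosphatase, averaged 11.6 ± 4.47 CPM over 6 MOC1 libraries (SD) and 17.3 ± 3.49 CPM over 5 sham libraries (SD) and did not pass (log2 -0.63 ± 0.26).

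Zfp36 encodes tristetraprolin, which binds AU-rich elements and speeds the decay of early mRNAs. On chromosome 7 (28376784 to 28380253), it ran from 78.5 to 116 CPM in MOC1 libraries with a median of 86.7, and stood at 273, 342 and 181 CPM in sham females and 230 and 247 CPM in sham males. It fell 2.82-fold with no overlap (log2 -1.50 ± 0.14, adjusted p = 2.84e-06, edgeR). Phlda1, a pleckstrin-homology protein, fell 3.12-fold (log2 -1.64 ± 0.17, adjusted p = 1.02e-05, edgeR), between 16.1 and 31.6 CPM in MOC1 libraries and between 53.1 and 105 CPM in sham libraries. Btg2, an antiproliferative partner of mRNA deadenylases, fell 2.12-fold (log2 -1.08 ± 0.21, adjusted p = 0.00258, edgeR), between 24.5 and 58.4 CPM in MOC1 libraries and between 64.0 and 133 CPM in sham libraries. Gadd45b, a stress protein that also takes part in DNA demethylation in neurons, did not pass (log2 -0.99 ± 0.32, adjusted p = 0.0745, edgeR), and without MOC1 female 3 it did, at -1.22 with an adjusted p of 0.0231. Ier3, a survival gene, stood at -0.45 ± 0.21 and did not pass.

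Ccn1 encodes a secreted protein that binds integrins and is a classical target of SRF and of the Hippo effector YAP. On chromosome 3 (145646976 to 145649981), it ran from 91.8 to 188 CPM in MOC1 libraries with a median of 114. It stood at 420, 681 and 536 CPM in sham females and at 344 and 379 CPM in sham males. The arms did not overlap, and Ccn1 fell 3.53-fold (log2 -1.82 ± 0.15, adjusted p = 2.59e-06, edgeR), the smallest adjusted p among the members. Ccn2, its relative, ranged from 5.52 to 19.4 CPM in MOC1 libraries and from 9.57 to 80.9 CPM in sham libraries. It did not pass (log2 -1.32 ± 0.45, adjusted p = 0.0987, edgeR), and without sham female 1, its highest library, the change was -0.80.

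Per kilobase of exon, the same genes led in both arms. Fos was highest, at 129 ± 23.8 CPM per kilobase in MOC1 libraries (SD, n = 6) and 363 ± 107 in sham libraries (SD, n = 5). Egr1 stood at 69.6 ± 13.8 in MOC1 libraries and 192 ± 57.9 in sham libraries. Ccn1 stood at 63.7 ± 21 in MOC1 libraries and 234 ± 68.1 in sham libraries. Egr1 and Ccn1 changed places between the arms, and within each arm they differed by less than their spread. Zfp36 was number 8 in MOC1 libraries (26.2 ± 4.09) and number 4 in sham libraries (73.4 ± 17.0). Its neighbours in MOC1 libraries, Ier3 (29.7 ± 6.06), Nr4a1 (28.9 ± 3.81) and Dusp1 (22.6 ± 3.71), lay within its SD. Jund, with the smallest of the falls, was number 4 in MOC1 libraries (42.9 ± 9.18) and number 6 in sham libraries (64.5 ± 15.6). Npas4, Fosl1 and Egr4 each averaged under 1 CPM per kilobase in both arms, and so did Nr4a2 (0.879 ± 0.355) and Nr4a3 (0.367 ± 0.213) in MOC1 libraries.

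Members fell within each sex, but not all of the 19 passed there. Egr3, Nr4a3 and Dusp6 passed in neither sex, and Ccn2, counted below in females, did not pass with both sexes together. In females 17 members fell, where 3.15% of all genes tested were lower and 1.33% higher. In males 9 fell, where 1.09% of all genes were lower and 0.166% higher. None rose in either sex by edgeR, none was higher at an unadjusted p under 0.05, and DESeq2 called 20 lower in females, 12 lower in males and none higher. All 9 that fell in males (Fos, Fosb, Egr1, Nr4a1, Arc, Dusp1, Zfp36, Phlda1 and Ccn1) also fell in females. The other 8 that fell in females were Junb, Jund, Ier2, Ier5, Klf4, Csrnp1, Btg2 and Ccn2, and the interaction tests bear on the difference. Ccn1 changed by -1.84 ± 0.21 in females and -1.79 ± 0.22 in males on the log2 scale, Arc by -1.76 ± 0.26 in females and -1.25 ± 0.28 in males, and Zfp36 by -1.68 ± 0.18 in females and -1.26 ± 0.19 in males. Nr4a1 changed by -0.91 ± 0.13 in females and -1.17 ± 0.14 in males. The median over the 31 members was -1.44 in females and -0.85 in males, where the medians of all genes tested were -0.04 and 0.01.

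The male comparison rests on 2 sham libraries. The count of 9 was 5 without MOC1 male 1, 6 without MOC1 male 2, 7 without MOC1 male 3, 4 without sham male 1 and 5 without sham male 3. Fosb lost its male call without any 1 of these 5 libraries, Egr1, Arc and Dusp1 without 4 of them, and Phlda1 without sham male 1. A lone sham male library is then assumed to vary like the other groups. Whether the change differs between the sexes was tested by the interaction of sex and tumour. No member passed in edgeR or DESeq2, nor did any of the 16817 genes (0% called). At an unadjusted p under 0.05 edgeR gave 5 members and DESeq2 4, with 708 of all genes in edgeR. The 5 were Ier5, Junb, Egr1, Dusp1 and Fos, each with the larger fall in females. Among sham libraries, Fos (1298 CPM) and Egr1 (1317 CPM) were highest in sham female 2. Junb (200 CPM), Dusp1 (208 CPM) and Ier5 (54.9 CPM) were highest in sham female 1. Ier5 stood at 29.2 CPM in sham female 2 and between 15.5 and 16.9 CPM in the other sham libraries. For Ier5 the female change was lower than the male by 2.15 (SE 0.57), at -2.52 ± 0.39 in females and -0.37 ± 0.41 in males. For Junb the changes were -1.37 ± 0.15 in females and -0.60 ± 0.17 in males.

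**Figure D3:**
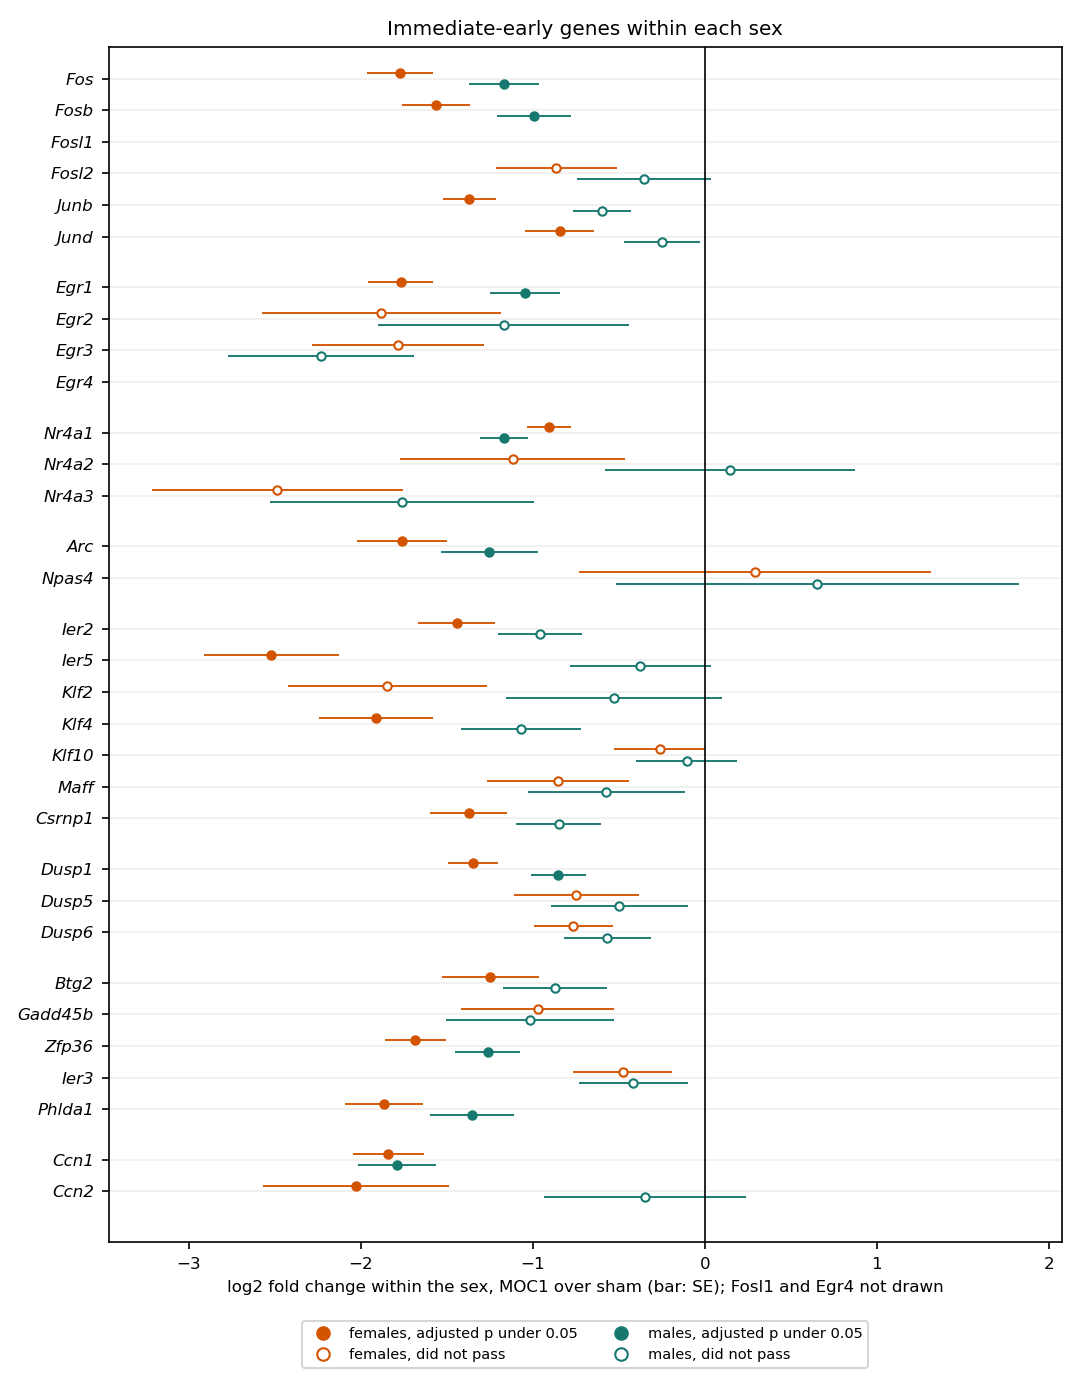
Log2 fold change of MOC1 over sham within females (upper point of each gene) and within males (lower point), with its standard error, for 30 members. Filled points passed an adjusted p of 0.05; 17 are filled for females and 9 for males, and Ccn1 has nearly the same value in both sexes.

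The members' sum per library stood beside the marker sums of the same libraries. The 32 genes together made up 1302 to 1942 CPM in MOC1 libraries and 3546 to 5625 CPM in sham libraries, without overlap. Satellite glia markers were lower too, and pan-neuronal markers higher. Schwann cell markers summed to 1981 to 2332 CPM in MOC1 libraries and 2678 to 3034 CPM in sham libraries, and 6 of 15 fell while 1 rose. Fibroblast markers summed to 66.8 to 80.8 CPM in MOC1 libraries and 113 to 199 CPM in sham libraries, and 2 of 9 fell. Neither sum overlapped between the arms, and the part of these cells in the members' falls was not tested. The ratio of the members' sum to the pan-neuronal sum was 0.0839 to 0.128 in MOC1 libraries and 0.264 to 0.440 in sham libraries, again apart. The ratio to the satellite glia sum was 0.280 to 0.444 in MOC1 libraries and 0.348 to 0.494 in sham libraries, and these ranges overlapped. Sham female 2 had the highest members' sum and the highest satellite glia sum (11379 CPM) of all libraries. MOC1 female 3 had the lowest of both (1302 and 3524 CPM). Elsewhere the order within an arm differed. Sham female 1 had the lowest satellite glia sum of the sham libraries (9415 CPM) with a members' sum of 4506 CPM. MOC1 male 3 had the highest members' sum of the MOC1 libraries (1942 CPM) with 4371 CPM of satellite glia markers. The part of the glial share in the falls was not tested, and with glial sums that do not overlap, the tumour and the glial share cannot be told apart across these libraries.

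**Figure D4:**
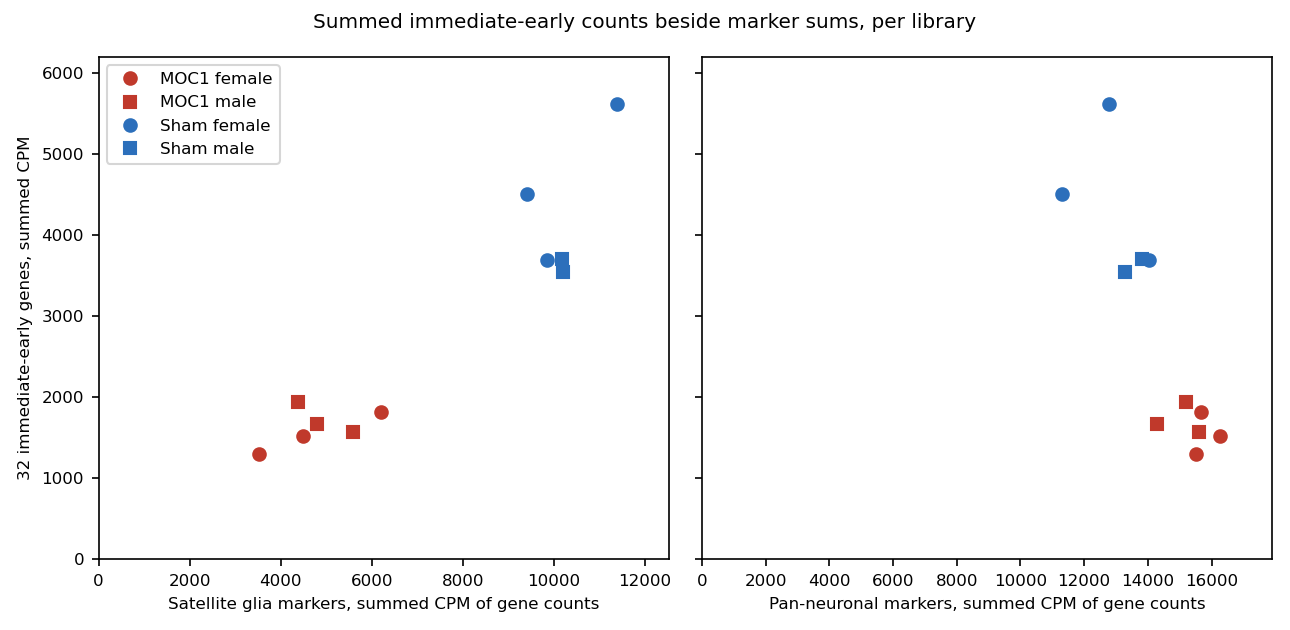
Summed CPM of the 32 immediate-early genes in each library against the summed satellite glia markers (left) and the summed pan-neuronal markers (right), with 1 point per library. The 6 MOC1 libraries sit at 1302 to 1942 CPM and at 3524 to 6200 CPM of glial markers, below and left of the 5 sham libraries.

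Scaling the libraries to one or the other marker list moved the calls. With the pan-neuronal list as the scale, 26 members were lower and none higher, the members' median was -1.51 and the median of all genes was -0.29, with 11.4% of all genes called lower. With the satellite glia list as the scale, the median of all genes moved to 1.07 and 59.7% of them were called higher. The members' median was then -0.13, with 4 members lower (0.315% of all genes) and 3 higher. The 4 were Ccn1 (-0.74), Egr3 (-0.97), Phlda1 (-0.57) and Fos (-0.42), and the 3 were Klf10 (0.88), Ier3 (0.65) and Jund (0.55). Of the 19 members that fell, Junb, Jund, Nr4a1 and Dusp6 had values above 0 on the glial scale. Each scaling moved the members and the median of all genes by about the same amount, so the members' place relative to that median carries no separate information.

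**Figure D5:**
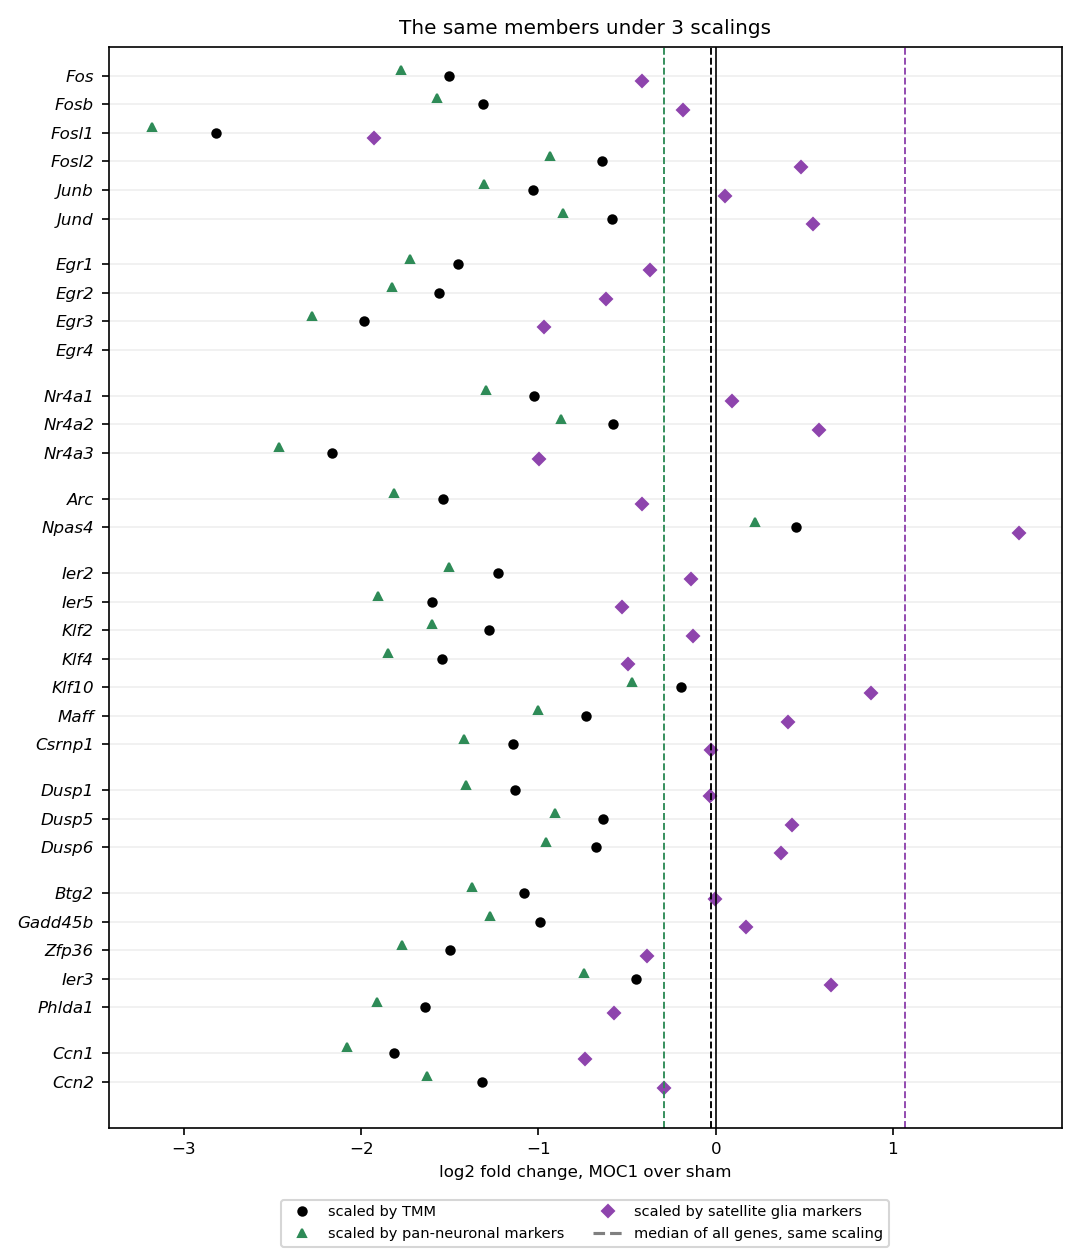
Log2 fold change of MOC1 over sham for the 31 tested members with libraries scaled by TMM (circles), by pan-neuronal markers (triangles) or by satellite glia markers (diamonds). Dashed lines mark the median of all genes under each scaling, at -0.03, -0.29 and 1.07. From one scaling to the next, members and lines move together.

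Other genes of the early response, outside the 32, moved the same way. Of 34 such genes 21 fell and none rose by edgeR, with a median of -0.84, and none was higher by DESeq2 or at an unadjusted p under 0.05. They included Plk2, a kinase induced by activity (log2 -1.08 ± 0.12), the cytokine-signalling inhibitor Socs3 (-1.20 ± 0.13), the stress phosphatase subunit Ppp1r15a (-0.93 ± 0.12) and Jun, the AP-1 partner of Fos (-1.06 ± 0.14). Jun averaged 382 ± 67.0 CPM over 6 MOC1 libraries (SD) and 796 ± 181 CPM over 5 sham libraries (SD). By edgeR under TMM scaling 4.28% of all genes tested were lower and 2.34% higher. On the glial scale 9 of the 34 were higher and none lower, with a median of 0.24. Of all genes tested, 59.7% were higher on that scale and 0.315% lower, with a median of 1.07. Plk2 (0.017), Ppp1r15a (0.17) and Jun (0.017) had values above 0 there. Of 22 tested targets of YAP and SRF in the cytoskeleton and matrix, 7 fell and none rose by edgeR (8 and none by DESeq2, with 1 higher at an unadjusted p under 0.05), among them tissue factor F3 (-1.33 ± 0.16), the receptor kinase Axl (-0.92 ± 0.17), Amotl2 (-0.92 ± 0.20) and the YAP partner Wwtr1 (-1.35 ± 0.33). On the glial scale 9 of the 22 were higher and none lower, with a median of 0.15, again beside 59.7% of all genes higher. Of 16 tested feedback inhibitors of MAP kinases, Dusp4 was the 1 that fell (-1.62 ± 0.27), while Spry2 stood at -0.45 ± 0.17 and did not pass. On the glial scale 10 of these 16 were higher and none lower, a share near the 59.7% of all genes.

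Few genes of the upstream signalling proteins passed under TMM scaling. Of 33 genes of the SRF, ternary complex factor, CREB and MAP kinase pathways none fell by edgeR, 3 were lower at an unadjusted p under 0.05, and DESeq2 called 1 lower. By edgeR 2 rose, the calcium-dependent kinase Camk2a (0.29 ± 0.07) and the ribosomal S6 kinase Rps6ka3 (0.26 ± 0.07), with a median of 0.10. Of all genes tested, 4.28% were lower and 2.34% higher by edgeR under TMM scaling. Scaled to the pan-neuronal list none of the 33 was higher and 4 were lower, and Rps6ka3 stood at -0.011. By that scaling 11.4% of all genes tested were lower and 0.161% higher, so the count of 4 is near the share of all genes. On the glial scale 28 of the 33 were higher and none lower, with a median of 1.21. The median of all genes was 1.07 there, and 59.7% of them were higher.

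Slower activity-regulated genes of neurons moved both ways. Of 23 tested, 7 rose and 3 fell, with a median of 0.10. Of all genes tested, 2.34% were higher and 4.28% lower by edgeR under TMM scaling. The granin-like peptide precursor Vgf rose to 150 ± 26.7 CPM over 6 MOC1 libraries (SD), against 70.5 ± 19.2 CPM over 5 sham libraries (SD), a log2 change of 1.07 ± 0.14. The neuronal pentraxin Nptx2 (0.95 ± 0.13), the neurotrophin Bdnf (0.94 ± 0.13) and Nptx1 (0.66 ± 0.15) rose too. Vgf (0.80), Nptx2 (0.68), Bdnf (0.68) and Nptx1 (0.41) also had values above 0 on the pan-neuronal scale, where 3 of the list were called higher and 4 lower. On that scale 0.161% of all genes tested were higher and 11.4% lower. The neurotrophin receptor Ntrk2 (-0.79 ± 0.12), the plasminogen activator Plat (-1.13 ± 0.21) and Gadd45g (-0.67 ± 0.18) fell. Scaled to satellite glia markers, 15 of the 23 were higher and none lower. By the same scaling 59.7% of all genes tested were higher and 0.315% lower, so the count of 15 is near the share of all genes. Of the 4 neuron-typical early genes in the same libraries, Arc and Egr3 fell under TMM scaling, Npas4 did not pass (0.45 ± 0.75) and Egr4 was not tested.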

How the data were processed

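The deposited files hold the authors' raw counts per gene for 11 libraries of poly(A)-selected RNA, counted by STAR with regard to strand and without normalization, per the file headers. The submitters' processing notes name Trimmomatic 0.35, STAR 2.7.1a, RSEM and GRCm38; no source used here gives the annotation release. Rows without a gene (18.7% to 21.5% of a library's counts) were dropped. Members were matched by the names in the files. Gene positions were those supplied with the counts. Exon lengths came from GENCODE M21 (GRCm38), which matched 55141 of the 55401 identifiers.

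The low-count filter was filterByExpr over the 4 groups of arm and sex, and it kept 16817 genes. After TMM scaling, edgeR 4.0.16 (R 4.3.3) compared MOC1 with sham libraries by its quasi-likelihood test, adjusting for sex, with Benjamini-Hochberg adjustment over all genes tested and a threshold of 0.05. A fit of the 4 groups gave the changes within each sex and the interaction (female minus male). The SE of a log2 change is its size divided by the root of F. Member levels are CPM with TMM scaling and list sums are CPM without it. The members, lists and alternatives were chosen with earlier results of these data known. All 32 members are named, and of each related list up to 4 called genes per direction with the smallest p, or 2 where fewer than 2 were called. The alternatives were DESeq2 1.42.0, other scalings and filters, no sex term, the replicate number as a block and libraries left out. The fits were tested on simulated counts first. Within groups, no libraries agreed within sampling noise.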

Additional observations from a re-analysis of the deposited data

Results flagged for a closer look

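Of 66 groups of 5 or 6 libraries, 10 held a library far from the others, a gap that chance gives in about 1 group in 20. Sham female 2 was the highest of the 5 sham libraries by such a gap for Fos (1298 CPM, the others between 709 and 794), Fosb (346 CPM, the others between 168 and 210) and Egr1 (1317 CPM, the others between 697 and 827). It was the lowest for Dusp5 (11.1 CPM, the others between 18.6 and 19.5). Without it Fos stood at -1.30 and Egr1 at -1.27 on the log2 scale.

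Sham female 1, the library with the highest endothelial and mural markers, was far above the other sham libraries for Klf4 (132 CPM, the others between 49.3 and 65.0), Klf2 (69.0 CPM, the others between 9.03 and 18.1), Fosl2 (83.0 CPM, the others between 24.8 and 39.0) and Fosl1 (1.96 CPM, the others at most 0.509). Sham female 1 was the highest of the 5 sham libraries for 19 of the 32 members, and sham female 2 for 10. Without sham female 1 the median log2 change was -1.01 over the 30 members then tested, against -1.23 over 31 with it. The part of endothelial RNA in these values was not tested. Among MOC1 libraries, MOC1 male 3 stood apart for Fosl1 (1.66 CPM, the others at most 0.129) and MOC1 female 3 for Egr4 (2.65 CPM, the others at most 0.371).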

How the results depend on the processing

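The count of 19 members lower was 22 with DESeq2, 19 with its size factors, 19 with total-count scaling, 24 with no low-count filter, 19 with 1 CPM in 5 libraries, 20 with no sex term, and 20 without sham female 1, MOC1 female 3 and MOC1 male 2 together. Scaled to the satellite glia markers it was 4, with 3 members higher. With each library left out in turn it lay between 17 and 21, in females between 14 and 19 and in males between 4 and 11, and no member was higher. With the replicate block the counts were 19, 19 in females and 9 in males. Jund was lost (-0.57, adjusted p = 0.0523, edgeR) and Gadd45b gained (adjusted p = 0.0380, edgeR). With each group's mean taken off per gene, log2 CPM of same-numbered libraries of different groups correlated at -0.04 to 0.05. No pairing by number was seen, and libraries with different numbers were not compared. Glial scaling reversed the sign of 11 members: Fosl2 (0.48), Junb (0.052), Jund (0.55), Nr4a1 (0.090), Nr4a2 (0.58), Klf10 (0.88), Maff (0.41), Dusp5 (0.43), Dusp6 (0.37), Gadd45b (0.17) and Ier3 (0.65). Npas4 lay between -0.089 (without MOC1 female 3) and 0.84 with each library left out in turn and at -0.17 without the 3 libraries, where Klf10 stood at 0.099. Glial scaling also moved the median of all genes, from -0.03 under TMM to 1.07, and which scale suits these genes was not tested. The cause of the reversals of Npas4 and Klf10 without libraries was not tested either. Depth limits Fosl1, Egr4 and Npas4, which had at most 32, 36 and 106 counts in a library.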

Other observations

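Heat shock chaperones, which refold proteins and are induced by heat, stress and dissociation of a tissue, included genes that were lower in MOC1 libraries under TMM scaling. Of 16 tested genes 5 fell and none rose by edgeR, with a median log2 change of -0.29, and DESeq2 called 9 lower and none higher. By edgeR 4.28% of all genes tested were lower and 2.34% higher. The co-chaperone Dnajb1 averaged 92.3 ± 21.5 CPM over 6 MOC1 libraries (SD) and 305 ± 179 CPM over 5 sham libraries (SD), a log2 change of -1.68 ± 0.26. The small chaperone Cryab stood at -1.42 ± 0.22. Hspa1a (-2.42 ± 0.30) and Hspa1b (-2.38 ± 0.32) are near-identical copies whose reads can match both genes, so their separate values are uncertain. On the glial scale 3 of the 16 were lower and 11 higher, where 0.315% of all genes were lower and 59.7% higher. The median of the 16 was 0.81, where the median of all genes was 1.07. Dnajb1 stood at -0.56 and Cryab at -0.37 on that scale. The summed chaperones were highest in sham female 2 (11082 CPM), which also had the highest immediate-early sum (5625 CPM).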
